A study of Mus musculus with 22 samples.

Results

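The 36 genes described here are imprinted mouse genes, which are expressed from the maternal or the paternal copy only, at least in some tissues. They were taken as a named list, and all 36 occur among the 22517 gene names of the deposited expression tables. By textbook assignment 15 are expressed from the maternal copy and 21 from the paternal copy. They lie on 10 chromosomes, in 7 multi-gene domains and at 11 single-gene loci. The libraries carry no information on alleles, so levels below are sums over both copies.

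The data were poly(A) RNA-seq libraries from C57BL/6 mouse cells, 2 libraries in each of 11 groups, from a study of the direct induction of mouse embryonic fibroblasts (MEFs) to neural progenitor cells (NPCs). The groups were teratoma, induction cultures of 7 sampling days (labelled Day1 and Day4, then Day7 and Day10, then Day14, Day17 and Day21), primary neurosphere-like clusters (pre-NPCs), the established induced line at passage 6 (giNPC P6), and NPCs derived from neonatal brain (Brain-NPCs). What induced the cells and what formed the teratoma are not stated in the labels. Nor do the labels say that both libraries of any group came from separate cultures or animals. The p-values thus measure the spread between these libraries, which may be technical in some groups. The sex-linked genes given below show that the 2 giNPC P6 libraries were not made from the same cells. Day1 is already a day of induction, and no untreated MEF library was analysed here.

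In imprinted domains, DNA methylation laid down in egg or sperm marks a control region, and this mark decides which parental copy of the neighbouring genes is read. At the Igf2-H19 and Dlk1-Meg3 domains the maternal copy gives a long non-coding RNA (H19; Meg3, Rian and Mirg) and the paternal copy gives a protein-coding gene (Igf2; Dlk1). Many imprinted genes act on growth of the embryo and placenta, and several, such as Nnat, Ndn, Snrpn and Peg3, are abundant in brain.

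Some sequences are shown because they belong to genes on which the results turn and carry elements tied to imprinting. H19 RNA is the precursor of miR-675. Its 2 mature forms, from RefSeq (GRCm38.p6, chromosome 7, minus strand), have their seeds (bases 2 to 8) in capitals and do not share a seed. The miRNAs themselves were not measured in these poly(A) libraries.
mmu-miR-675-5p: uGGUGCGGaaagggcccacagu
mmu-miR-675-3p: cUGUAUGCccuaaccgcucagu

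The motif TGCCGC is the core of the sequence bound by ZFP57, a zinc-finger protein that keeps methylation at imprinting control regions. Read on the opposite strand it appears as GCGGCA. It was searched on both strands in the 250 bases before each RefSeq gene start (GRCm38.p6). Of 32851 such windows, 2850 (8.7%) held it, against 6 of 49 windows (12.2%) of the listed genes, from 5 of the 31 that matched the table by symbol (Mest, Nap1l5, Zim1, Plagl1 and Meg3). Mest is counted with overlapping windows, chr6:30737800-30738049 and chr6:30737803-30738052, which hold the same copies of the motif. The windows of Mest, Nap1l5, Plagl1 and Meg3, genes that moved in different directions over the induction, are given 5′ to 3′ on the strand of the gene with the motif in capitals. They lie at chr6:30737803-30738052 (plus strand) for Mest, chr6:58907127-58907376 (minus strand) for Nap1l5, chr10:13090582-13090831 (plus strand) for Plagl1 and chr12:109540746-109540995 (plus strand) for Meg3.
Mest: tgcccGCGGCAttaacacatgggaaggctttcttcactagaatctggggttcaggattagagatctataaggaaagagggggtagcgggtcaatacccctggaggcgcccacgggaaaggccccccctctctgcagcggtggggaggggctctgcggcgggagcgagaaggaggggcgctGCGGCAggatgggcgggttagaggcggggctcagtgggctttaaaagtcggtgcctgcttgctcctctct
Nap1l5: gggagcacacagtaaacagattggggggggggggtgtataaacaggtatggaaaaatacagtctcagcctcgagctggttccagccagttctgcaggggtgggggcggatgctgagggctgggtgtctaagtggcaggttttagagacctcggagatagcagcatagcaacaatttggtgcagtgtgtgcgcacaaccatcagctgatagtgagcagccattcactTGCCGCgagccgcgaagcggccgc
Plagl1: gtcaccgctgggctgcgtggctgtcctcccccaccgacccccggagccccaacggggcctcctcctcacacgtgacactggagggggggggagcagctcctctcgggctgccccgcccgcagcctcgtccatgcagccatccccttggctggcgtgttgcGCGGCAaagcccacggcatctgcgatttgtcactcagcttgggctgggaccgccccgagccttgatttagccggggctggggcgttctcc
Meg3: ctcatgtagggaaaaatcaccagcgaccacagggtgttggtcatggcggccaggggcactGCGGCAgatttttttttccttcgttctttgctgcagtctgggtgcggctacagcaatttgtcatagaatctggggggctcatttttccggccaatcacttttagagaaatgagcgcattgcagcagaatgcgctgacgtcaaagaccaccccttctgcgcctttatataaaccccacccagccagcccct
These windows hold 14, 10, 19 and 10 CpG dinucleotides, the bases on which imprinting methylation sits. The median was 6 over all windows and 8 over the windows of the listed genes. The motif itself holds a CpG, so windows chosen for it cannot be compared fairly with these medians. Methylation was not measured, and a match describes only the letters of the window.

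Levels are FPKM (fragments scaled to transcript length and sequencing depth), summed over the transcripts of a gene. Tests were made with limma on log2(FPKM + 1) over the 15658 genes for which 2 or more libraries reached 1 FPKM. A gene was called, and is said below to have risen, fallen or changed, where the Benjamini-Hochberg adjusted p was under 0.05 and the change reached 2-fold on that scale, which understates changes of low genes. Of the 36 genes, 33 passed the filter. Kcnq1ot1, Phlda2 and Ascl2 did not and were not tested, and Magel2, Kcnq1, Slc22a18 and Usp29 passed only through the teratoma libraries, so they had to differ there.

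Counted reads ranged from 3084428 to 9689996 per library. Neural progenitor markers (8 of 8 genes found) summed to 26.5 to 45.4 FPKM at Day1, 2550.3 and 2565 at Day10 and 6499 to 6602 at Day17. Of these, Nr2e1 was under 1 FPKM in both libraries of every induction day, of pre-NPCs and of giNPC P6. In Brain-NPCs and in teratoma 8 of 8 reached 1 FPKM in both libraries. Fibroblast markers (8 of 8) summed to 2569 and 2598 FPKM at Day1, 158 to 191 at Day17, and 388 to 412 at Day21. Macrophage markers (8 of 8) summed to 801 to 811 FPKM at Day1, 12136 to 12376 at Day7, 4864 to 5038 at Day10 and 264 to 307 at Day17. They were 2.14 to 19.9 FPKM in giNPC P6, against 6.35 to 7.67 in Brain-NPCs. The trophoblast markers were listed at 0 in all induction libraries. The Y-linked gene Eif2s3y was at 34.1 to 57.8 FPKM in the 14 induction libraries, at 1.57 and 22.2 in pre-NPCs, at 0 and 29.8 in giNPC P6 and at most 0.142 in Brain-NPCs and teratoma. Xist, the RNA of the inactive X, was at most 0.196 FPKM in the induction libraries, 30 and 49.4 in pre-NPCs, 64.7 and 2.13 in giNPC P6 and 45.3 and 46.5 in Brain-NPCs. Sex-linked genes thus differed between these groups and between the 2 giNPC P6 libraries, which did not hold the same cells. Pre-NPCs and giNPC P6 therefore cannot be taken as later samples of the cultures sampled by day. In comparisons of pre-NPCs, giNPC P6, Brain-NPCs or teratoma, the sex of the cells and the group cannot be told apart.

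Of the 33 tested imprinted genes, 23 changed over the 7 induction days by the F test with at least a 2-fold range of day means, against 52.4% of all genes tested. The median range of day means over the imprinted genes was 2.19 on the log2 scale, against 1.05 over all genes. The 10 that were not called were Ndn, Sgce, Gnas, Ube3a, Usp29, Magel2, Slc22a18, Sfmbt2, Rasgrf1 and Kcnq1. Genes of the list followed several courses: a peak at Day7 to Day14 followed by a fall at Day17, a fall from Day1 on, and a late rise. In these bulk cultures, fewer cells of a type and less RNA per cell cannot be told apart.

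**Figure D1:**
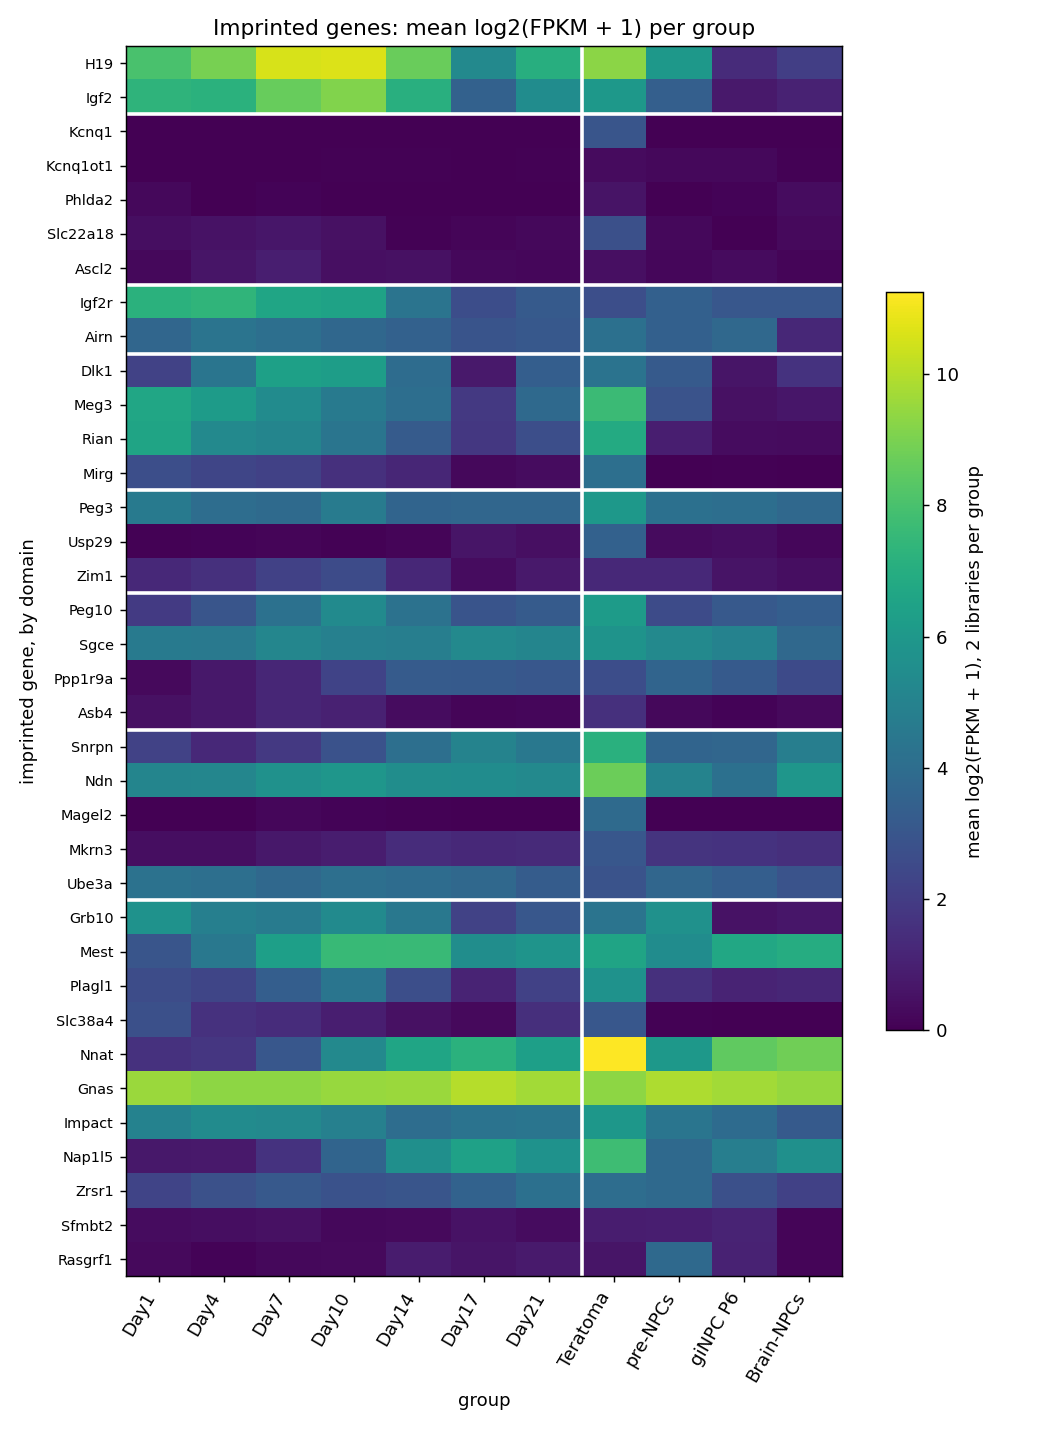
Heat map of the mean log2(FPKM + 1) of the 36 imprinted genes (rows, grouped by domain between white lines, the last block holding single-gene loci) in the 11 groups (columns, 2 libraries each). H19 and Igf2 are brightest at Day7 and Day10, Nnat is brightest in teratoma, and the 5 listed genes of the Kcnq1 domain stay at or below 1.17 FPKM outside teratoma.

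The Igf2-H19 domain gave some of the highest levels of the list. H19 lies on chromosome 7, 149761437 to 149764051 and Igf2 at 149836673 to 149846940 of the same chromosome, in the mm9 build of the files. H19, a non-coding RNA of the maternal copy, had 246 and 279 FPKM at Day1, 516 and 482 at Day4, 1351 and 1714 at Day7, 1562 and 1648 at Day10, 374 and 446 at Day14, 38.6 and 37.5 at Day17 and 131 and 137 at Day21. H19 was at 640.5 and 620.0 FPKM in teratoma, 70.5 and 55.2 in pre-NPCs, 3.15 and 0.677 in giNPC P6 and 3.23 and 3.4 in Brain-NPCs. The Day7 and Day10 libraries stood above the other days, and the Day17 libraries below all others of the course. Igf2, the insulin-like growth factor of the paternal copy, had 160.2 and 157 FPKM at Day1, 157 and 137 at Day4, 352 and 453 at Day7, 532 and 580.5 at Day10, 131 and 145 at Day14, 9.57 and 10.7 at Day17 and 46 and 40.3 at Day21. Igf2 was at 63.7 and 63.7 FPKM in teratoma, 8.15 and 11.5 in pre-NPCs, 1.31 and 0.225 in giNPC P6 and 0.877 and 1.43 in Brain-NPCs. Among the days, its Day10 libraries were the highest and its Day17 libraries the lowest. H19 rose at Day10 relative to Day1 (log2 fold change 2.61 ± 0.28 SE, adjusted p = 1.93e-06), and Igf2 rose as well (log2 fold change 1.80 ± 0.23 SE, adjusted p = 1.38e-05). At Day21 relative to Day1, Igf2 had fallen (log2 fold change -1.86 ± 0.23 SE, adjusted p = 5.72e-06), while H19 was lower by less than 2-fold (log2 fold change -0.96 ± 0.28 SE, adjusted p = 0.00714). Igf2 holds a share of 0.00868 of the counts expected from its FPKM and length, and its fall at Day21 was not called from counts (log2 fold change -0.59 with edgeR and -0.60 with DESeq2). Across the 11 group means the 2 genes ran together (Pearson r = 0.97, Spearman rho = 0.91), as a description only, since the points share libraries.

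**Figure D2:**
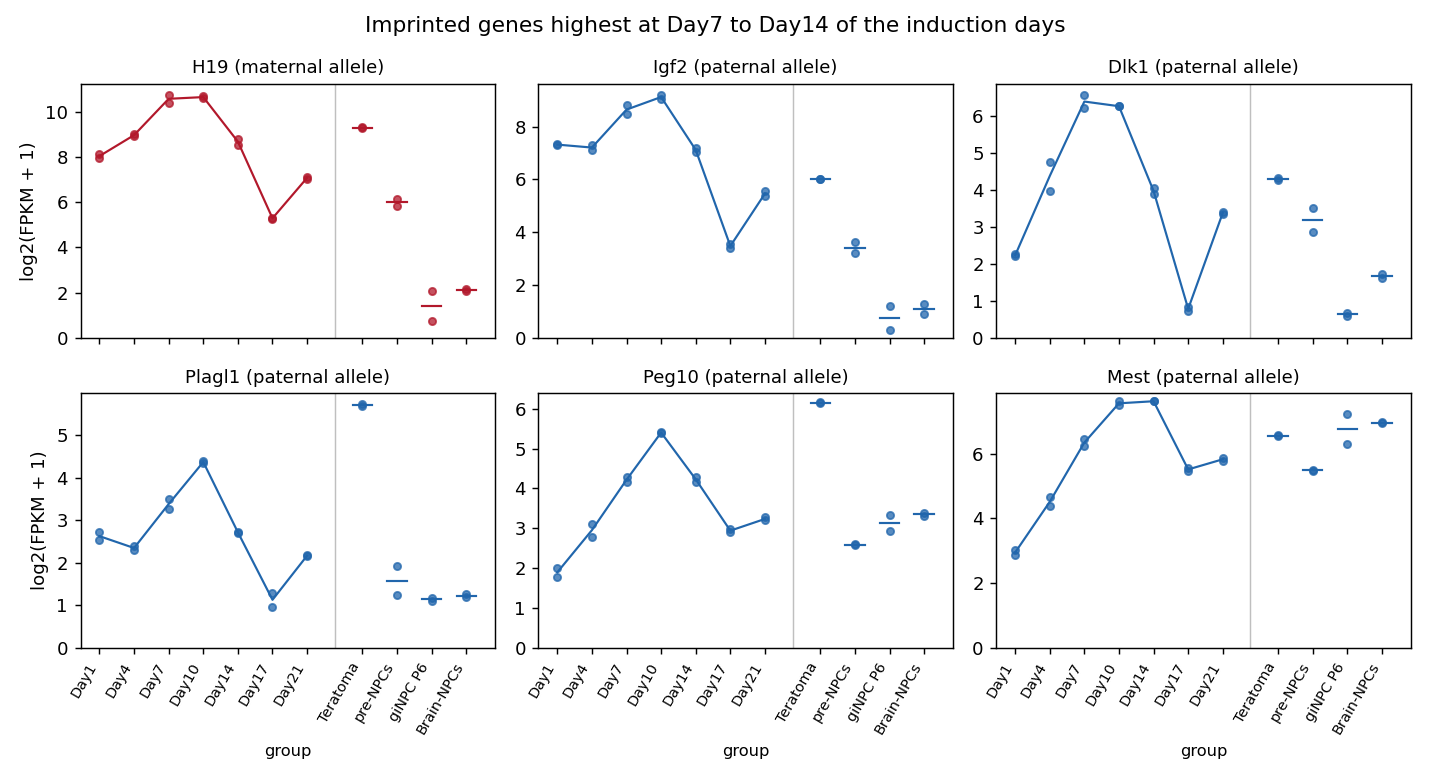
Values of H19, Igf2, Dlk1, Plagl1, Peg10 and Mest in log2(FPKM + 1) (y axis) by group (x axis), with 1 point per library, lines through the day means and bars at the means of the other 4 groups. In red is a gene of the maternal copy and in blue are genes of the paternal copy. Each gene was highest among the days at Day7, Day10 or Day14 and lower at Day17.

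In the Dlk1-Meg3 domain the coding gene and the non-coding RNAs took different courses. On chromosome 12 (mm9), Dlk1 lies at 110691033 to 110701546, Meg3 at 110779206 to 110809939, Rian at 110842155 to 110899921 and Mirg at 110973191 to 110987667. Dlk1, a membrane protein of the Notch-ligand family made by precursor cells of fat and other tissues, had 3.77 and 3.6 FPKM at Day1, 14.8 and 26.2 at Day4, 72.6 and 94.2 at Day7, 75.6 and 75.8 at Day10, 13.7 and 15.7 at Day14, 0.776 and 0.664 at Day17 and 9.18 and 9.63 at Day21. Dlk1 was at 18.2 and 19 FPKM in teratoma, 6.24 and 10.4 in pre-NPCs, 0.511 and 0.597 in giNPC P6 and 2.29 and 2.07 in Brain-NPCs. Its Day7 and Day10 libraries lay far above Day1 and its Day17 libraries below every other day. Dlk1 rose at Day10 relative to Day1 (log2 fold change 4.03 ± 0.22 SE, adjusted p = 1.88e-09) and was also higher at Day21 (log2 fold change 1.15 ± 0.22 SE, adjusted p = 0.000347). Meg3, a non-coding RNA of the maternal copy, had 97.2 and 101 FPKM at Day1, 63.5 and 80 at Day4, 41.4 and 42.9 at Day7, 23.8 and 22.3 at Day10, 14.9 and 16.2 at Day14, 3.08 and 2.3 at Day17 and 14.7 and 12.5 at Day21. Meg3 was at 206 and 205 FPKM in teratoma, 7.05 and 5.53 in pre-NPCs, 0.892 and 0.0676 in giNPC P6 and 0.601 and 0.583 in Brain-NPCs. Its level was highest at Day1 among the days, with no peak at Day7 or Day10. Rian, the next RNA of the maternal copy and host of small nucleolar RNAs, had 95 and 95.1 FPKM at Day1, 43.3 and 34.1 at Day4, 33.5 and 34.4 at Day7, 21.1 and 18.9 at Day10, 7.92 and 8.88 at Day14, 2.67 and 2.32 at Day17 and 5.22 and 5.97 at Day21. Rian was at 113 and 118 FPKM in teratoma, 1.03 and 0.877 in pre-NPCs, 0.61 and 0.046 in giNPC P6 and 0.215 and 0.31 in Brain-NPCs. Mirg, a host RNA of a microRNA cluster, had 5.19 and 5.82 FPKM at Day1, 3.19 and 5.22 at Day4, 2.75 and 4.31 at Day7, 2.33 and 1.56 at Day10, 1.28 and 1.29 at Day14, 0.155 and 0.175 at Day17 and 0.229 and 0.352 at Day21. By their means, the 3 RNAs were highest at Day1 and lowest at Day17 among the days. Mirg was at 15.6 and 16.7 FPKM in teratoma, 0 and 0 in pre-NPCs, 0 and 0.0712 in giNPC P6 and 0 and 0 in Brain-NPCs. At Day10 all 3 had fallen relative to Day1: Meg3 (log2 fold change -2.06 ± 0.20 SE, adjusted p = 8.3e-07), Rian (log2 fold change -2.20 ± 0.16 SE, adjusted p = 4.39e-08) and Mirg (log2 fold change -1.16 ± 0.18 SE, adjusted p = 8.27e-05). Over the 11 groups Meg3 followed Rian (Pearson r = 0.97) and Mirg (r = 0.93) more closely than Dlk1 (r = 0.63), again as a description. The call for Mirg at Day10 was lost without replicate 2 of Day10 (log2 fold change -0.97).

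**Figure D3:**
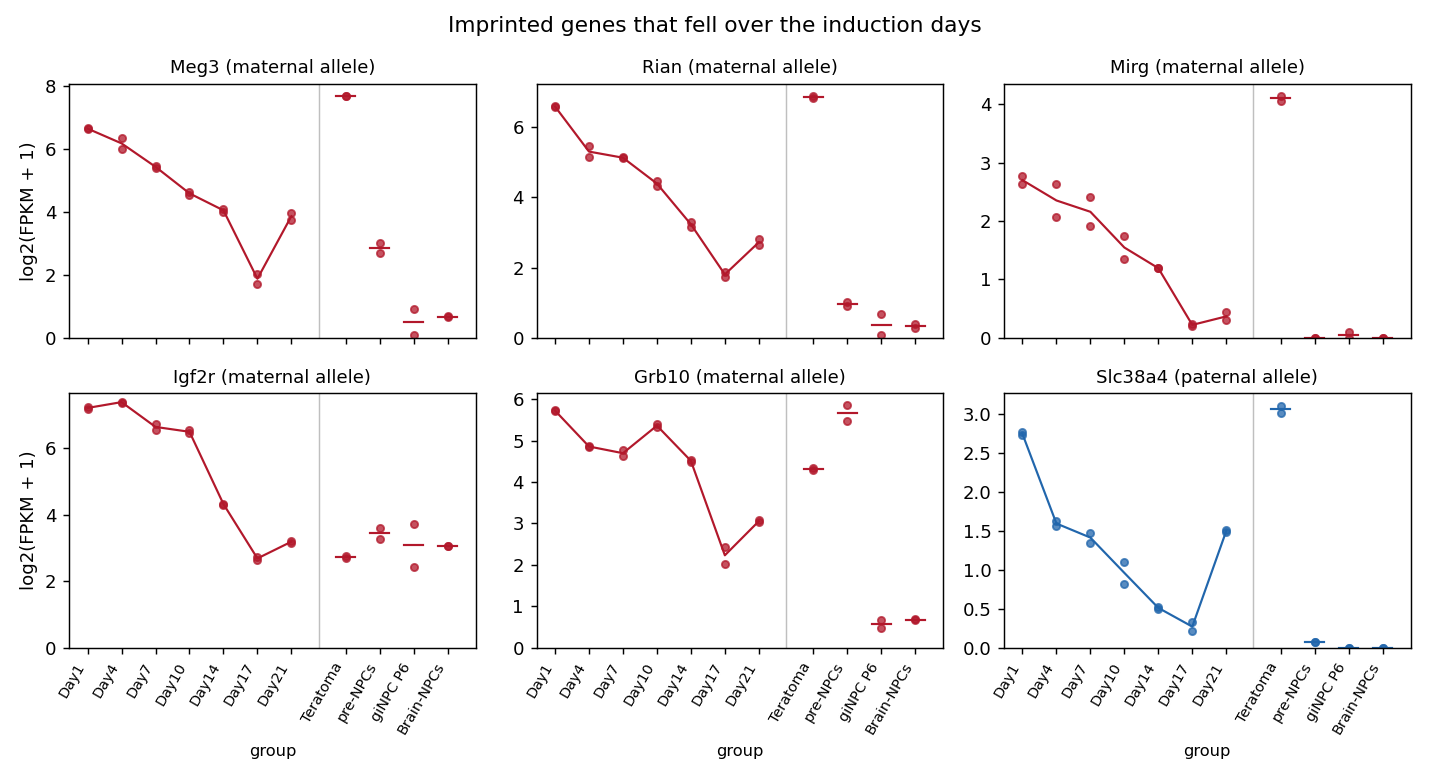
Values of Meg3, Rian, Mirg, Igf2r, Grb10 and Slc38a4 in log2(FPKM + 1) (y axis) by group (x axis), with 1 point per library, lines through the day means and bars at the means of the other 4 groups. Slc38a4 is of the paternal copy (blue) and the others of the maternal copy (red); all 6 fell over the days, and Grb10 returns to a high level in pre-NPCs.

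In the Igf2r-Airn domain the receptor fell, and the antisense RNA was not called at Day10 or Day21 relative to Day1. Both lie on chromosome 17 (mm9), Igf2r at 12875272 to 12962572 and Airn at 12934177 to 13052750. Igf2r, a receptor that carries Igf2 to lysosomes for breakdown, had 149 and 144 FPKM at Day1, 164 and 167 at Day4, 104 and 92.9 at Day7, 91.4 and 86.1 at Day10, 19.1 and 18.7 at Day14, 5.67 and 5.16 at Day17 and 7.91 and 8.26 at Day21. Igf2r was at 5.74 and 5.42 FPKM in teratoma, 8.65 and 11.2 in pre-NPCs, 12.1 and 4.41 in giNPC P6 and 7.32 and 7.35 in Brain-NPCs. The Day17 libraries were the lowest of the days, and teratoma, pre-NPCs, giNPC P6 and Brain-NPCs stayed within 4.41 to 12.1 FPKM. Igf2r was lower at Day21 than at Day1 (log2 fold change -4.02 ± 0.26 SE, adjusted p = 4.14e-09). Airn, the paternal antisense RNA that silences Igf2r on its own copy, had 13.8 and 10.5 FPKM at Day1, 20.8 and 17.3 at Day4, 17.1 and 15.9 at Day7, 12.7 and 12.4 at Day10, 9.06 and 11.9 at Day14, 6.63 and 6.73 at Day17 and 7.49 and 7.57 at Day21. Airn was at 16.9 and 16.4 FPKM in teratoma, 8.6 and 11.8 in pre-NPCs, 17 and 9.96 in giNPC P6 and 0.722 and 2.39 in Brain-NPCs. It changed over the days (range 1.38 on the log2 scale, adjusted p = 0.00214), and only the Brain-NPC libraries stood below 6 FPKM. Airn overlaps Igf2r, and the strand setting of the counting is not given, so reads of the 2 cannot be told apart there; the same holds for Kcnq1ot1 and Kcnq1.

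Grb10, an adaptor that restrains insulin and growth factor signalling, is read from the maternal copy in most tissues and from the paternal copy in neurons. It had 52.5 and 51.5 FPKM at Day1, 27.8 and 28.3 at Day4, 23.6 and 26.4 at Day7, 41.2 and 39.2 at Day10, 22.2 and 21.5 at Day14, 4.41 and 3.07 at Day17 and 7.42 and 7.2 at Day21. Grb10 was at 18.6 and 19.4 FPKM in teratoma, 57.6 and 43.3 in pre-NPCs, 0.393 and 0.578 in giNPC P6 and 0.611 and 0.59 in Brain-NPCs. The 2 pre-NPC libraries lay on either side of the Day1 libraries, while those of giNPC P6 and Brain-NPCs were at most 0.611. Grb10 fell at Day21 relative to Day1 (log2 fold change -2.67 ± 0.13 SE, adjusted p = 2.71e-10). Slc38a4, an amino acid transporter of the paternal copy, ranged from 0.157 to 5.82 FPKM over the days and fell at Day21 relative to Day1 (log2 fold change -1.25 ± 0.09 SE, adjusted p = 1.61e-08).

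At the Peg10-Sgce domain, Peg10, a protein derived from a retrotransposon and essential for the placenta, had 3.01 and 2.43 FPKM at Day1, 7.63 and 5.92 at Day4, 18.4 and 16.8 at Day7, 41.8 and 40.8 at Day10, 18.5 and 17 at Day14, 6.84 and 6.49 at Day17 and 8.16 and 8.64 at Day21. Peg10 was at 69.9 and 70.8 FPKM in teratoma, 5.06 and 4.95 in pre-NPCs, 6.62 and 9.02 in giNPC P6 and 9.4 and 8.96 in Brain-NPCs. It was highest at Day10 among the days, and rose at Day10 relative to Day1 (log2 fold change 3.51 ± 0.13 SE, adjusted p = 3.42e-11). Sgce, a sarcoglycan of the muscle and brain membrane next to Peg10, had 22.8 and 22.9 FPKM at Day1, 22.9 and 21.6 at Day4, 37.4 and 33.4 at Day7, 29.5 and 28.4 at Day10, 27.6 and 26.9 at Day14, 38.6 and 37.7 at Day17 and 30.9 and 36.1 at Day21. Sgce was at 55.8 and 53.3 FPKM in teratoma, 37.2 and 38.3 in pre-NPCs, 26.9 and 35.4 in giNPC P6 and 13.1 and 13.2 in Brain-NPCs. Its libraries ranged over less than 2-fold on the days and it was not called there. Ppp1r9a, a neurabin that organises actin in neurons, had 0.219 and 0.211 FPKM at Day1, 0.711 and 0.617 at Day4, 1.44 and 1.22 at Day7, 3.8 and 3.67 at Day10, 8.07 and 8.98 at Day14, 7.37 and 9.11 at Day17 and 7.69 and 7.05 at Day21. Ppp1r9a was at 5.45 and 5.35 FPKM in teratoma, 12.3 and 10.6 in pre-NPCs, 6.69 and 9.76 in giNPC P6 and 4.89 and 4.56 in Brain-NPCs. It rose at Day10 (log2 fold change 1.96 ± 0.14 SE, adjusted p = 4.31e-08) and at Day21 relative to Day1 (log2 fold change 2.78 ± 0.14 SE, adjusted p = 3.98e-10). Asb4, also of this domain, stayed at or below 2.19 FPKM in every library.

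Mest, an alpha/beta hydrolase of mesoderm, had 7.08 and 6.36 FPKM at Day1, 19.8 and 24.2 at Day4, 87.9 and 74.2 at Day7, 197 and 181 at Day10, 197 and 198 at Day14, 46.1 and 43.7 at Day17 and 57.9 and 54.3 at Day21. Mest was at 94.2 and 93.3 FPKM in teratoma, 44 and 43.8 in pre-NPCs, 77.5 and 149 in giNPC P6 and 123 and 125 in Brain-NPCs. It was highest at Day10 and Day14 among the days and rose at Day10 relative to Day1 (log2 fold change 4.62 ± 0.20 SE, adjusted p = 1.66e-10). Plagl1, a zinc-finger transcription factor that restrains growth, had 4.79 and 5.57 FPKM at Day1, 3.91 and 4.26 at Day4, 10.3 and 8.6 at Day7, 19.2 and 20.2 at Day10, 5.6 and 5.54 at Day14, 1.44 and 0.95 at Day17 and 3.52 and 3.45 at Day21. Plagl1 was at 50.8 and 52.7 FPKM in teratoma, 2.8 and 1.35 in pre-NPCs, 1.13 and 1.26 in giNPC P6 and 1.4 and 1.27 in Brain-NPCs. It was highest at Day10 among the days and rose there relative to Day1 (log2 fold change 1.75 ± 0.18 SE, adjusted p = 1.12e-06). Zim1, a zinc-finger gene of the Peg3 domain, reached 4.96 FPKM and also rose at Day10 (log2 fold change 1.29 ± 0.18 SE, adjusted p = 3.02e-05). Peg3, a zinc-finger protein linked to maternal behaviour and cell death, had 24.3 and 21.4 FPKM at Day1, 15.9 and 14.8 at Day4, 14.5 and 12.8 at Day7, 25.6 and 23.2 at Day10, 11.3 and 11.4 at Day14, 13.5 and 11.1 at Day17 and 11.7 and 12.6 at Day21. Peg3 was at 63.2 and 64.4 FPKM in teratoma, 19.4 and 14.6 in pre-NPCs, 19.7 and 12.2 in giNPC P6 and 12.8 and 12.7 in Brain-NPCs. It changed over the days (range 1.03 on the log2 scale, adjusted p = 0.00014), within 11.1 to 25.6 FPKM, and was highest in teratoma. Usp29, its neighbour on the opposite strand, had 0.0205 and 0.0974 FPKM at Day1, 0.0546 and 0.109 at Day4, 0.103 and 0.113 at Day7, 0.0457 and 0.0467 at Day10, 0.145 and 0.0678 at Day14, 0.526 and 0.58 at Day17 and 0.509 and 0.281 at Day21. Usp29 was at 10.3 and 10.1 FPKM in teratoma, 0.252 and 0.274 in pre-NPCs, 0.453 and 0.197 in giNPC P6 and 0.137 and 0.127 in Brain-NPCs. It was near 0 outside teratoma.

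The 3 neural genes Nnat, Nap1l5 and Snrpn of the paternal copy rose with the induction. They lie in mm9 on chromosome 2, 157385846 to 157388255, chromosome 6, 58855227 to 58857120 and chromosome 7, 67127388 to 67285105. Nnat, neuronatin, a membrane proteolipid of developing neurons, had 1.4 and 2.79 FPKM at Day1, 3.45 and 1.69 at Day4, 6.66 and 8.29 at Day7, 38.3 and 39.1 at Day10, 98.4 and 95.4 at Day14, 138 and 148 at Day17 and 86.9 and 76.3 at Day21. Nnat was at 2473 and 2408 FPKM in teratoma, 65.4 and 59.3 in pre-NPCs, 427 and 299 in giNPC P6 and 451 and 454 in Brain-NPCs. The libraries of Day14 and Day17 were above all earlier ones. Nap1l5, of the nucleosome assembly protein family, had 0.599 and 0.753 FPKM at Day1, 1.02 and 0.411 at Day4, 2.11 and 2.13 at Day7, 11.3 and 11.6 at Day10, 50.8 and 45.8 at Day14, 84.1 and 85.3 at Day17 and 53 and 50.2 at Day21. Nap1l5 was at 218 and 213 FPKM in teratoma, 28.2 and 6.02 in pre-NPCs, 16.9 and 43.5 in giNPC P6 and 50.2 and 47.9 in Brain-NPCs. The 2 pre-NPC libraries and the 2 giNPC P6 libraries of Nap1l5 lay far apart. Snrpn, a spliceosome protein from the Prader-Willi region, had 3.6 and 3.73 FPKM at Day1, 1.27 and 1.61 at Day4, 2.48 and 2.8 at Day7, 7.19 and 5.17 at Day10, 15.7 and 16.8 at Day14, 31.9 and 31.3 at Day17 and 23.4 and 20.4 at Day21. Snrpn was at 144 and 139 FPKM in teratoma, 9.47 and 13.9 in pre-NPCs, 8.65 and 17.3 in giNPC P6 and 26.3 and 28.1 in Brain-NPCs. At Day21 relative to Day1, Nnat (log2 fold change 4.77 ± 0.23 SE, adjusted p = 1.42e-10), Nap1l5 (log2 fold change 4.97 ± 0.47 SE, adjusted p = 3.43e-07) and Snrpn (log2 fold change 2.29 ± 0.23 SE, adjusted p = 5.93e-07) had all risen. Nnat and Snrpn hold shares of 0.00346 and 0.00813 of their expected counts, and neither was called from counts at Day21 (log2 fold changes of 0.19 to 0.20 for Nnat and 0.52 to 0.60 for Snrpn). The same held for Nnat at Day10 (0.30 to 0.33).

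**Figure D4:**
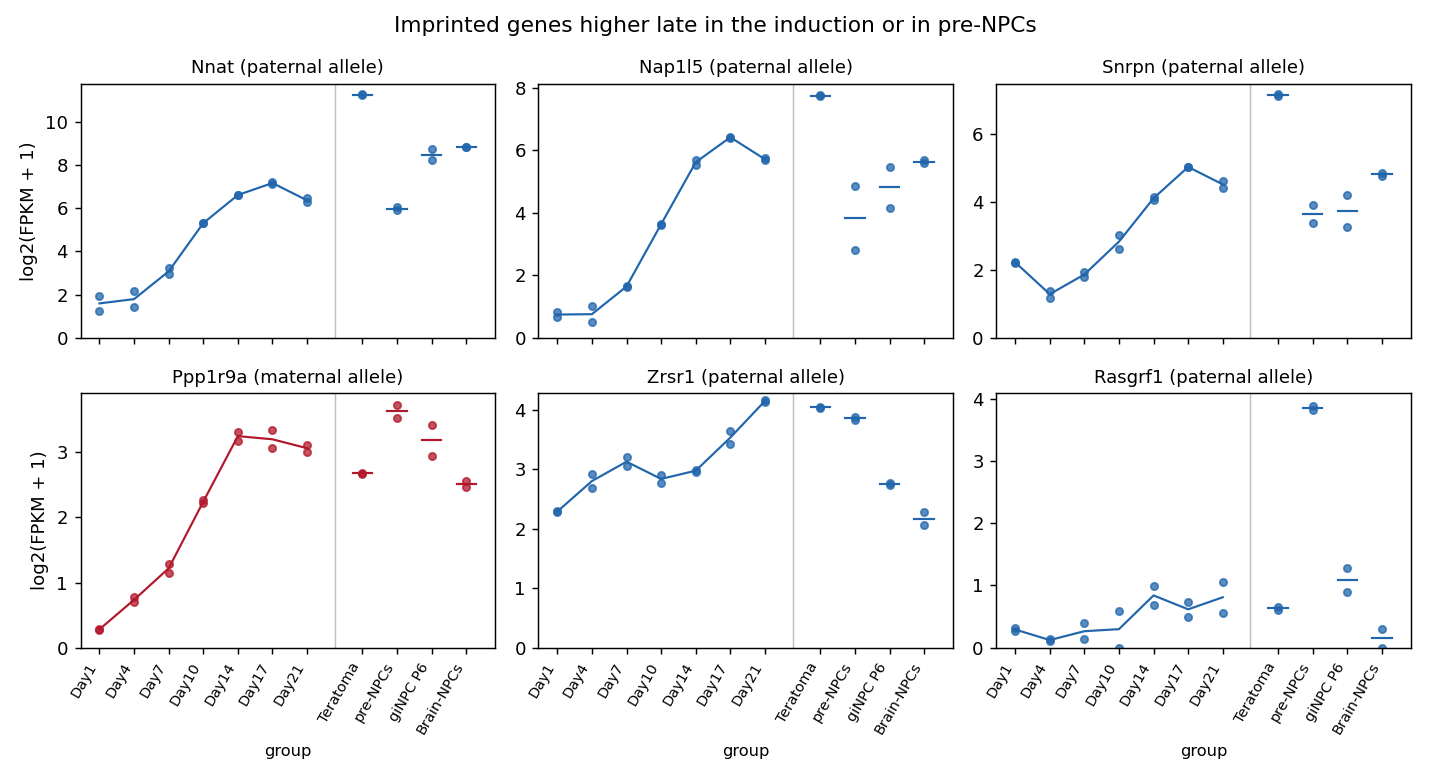
Values of Nnat, Nap1l5, Snrpn, Ppp1r9a, Zrsr1 and Rasgrf1 in log2(FPKM + 1) (y axis) by group (x axis), with 1 point per library, lines through the day means and bars at the means of the other 4 groups. Ppp1r9a is of the maternal copy (red) and the others of the paternal copy (blue). Rasgrf1 reached 13.9 and 13.2 FPKM in pre-NPCs and at most 1.43 in every other library.

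Of the other genes of the Prader-Willi/Angelman region, Mkrn3 ran closest to Snrpn over the 11 group means (Pearson r = 0.91) and Ube3a ran opposite to it (r = -0.76), as a description. Ndn, necdin, a growth suppressor of neurons, had 34.7 and 33.1 FPKM at Day1, 29.7 and 41.1 at Day4, 52.2 and 50 at Day7, 61.4 and 57.6 at Day10, 43.2 and 45.8 at Day14, 46.6 and 40.7 at Day17 and 35 and 42.3 at Day21. Ndn was at 429 and 418 FPKM in teratoma, 38.5 and 26 in pre-NPCs, 20.1 and 14.3 in giNPC P6 and 61.2 and 57.2 in Brain-NPCs. It was not called over the days. Mkrn3, a ring-finger gene linked to puberty timing, stayed at or below 1.7 FPKM on all induction days but was called as changed (range 1.01 on the log2 scale, adjusted p = 0.000301). Ube3a, a ubiquitin ligase that is maternal in neurons only, ranged from 5.82 to 19.7 FPKM over all libraries and was not called in any planned comparison. Magel2, another gene of the MAGE family, had 0.0164 and 0 FPKM at Day1, 0 and 0 at Day4, 0.121 and 0.154 at Day7, 0.091 and 0.0946 at Day10, 0.0459 and 0.0432 at Day14, 0 and 0 at Day17 and 0 and 0.0296 at Day21. Magel2 was at 14.2 and 13.3 FPKM in teratoma, 0 and 0 in pre-NPCs, 0 and 0 in giNPC P6 and 0 and 0 in Brain-NPCs. Zrsr1, a splicing factor gene that lies within an intron of Commd1, had 3.84 and 3.93 FPKM at Day1, 6.55 and 5.44 at Day4, 7.31 and 8.19 at Day7, 6.47 and 5.84 at Day10, 6.77 and 6.97 at Day14, 9.72 and 11.5 at Day17 and 16.5 and 17 at Day21. Zrsr1 was at 15.4 and 15.5 FPKM in teratoma, 13.2 and 13.8 in pre-NPCs, 5.78 and 5.67 in giNPC P6 and 3.16 and 3.85 in Brain-NPCs. It rose at Day21 relative to Day1 (log2 fold change 1.86 ± 0.11 SE, adjusted p = 1.55e-09). Impact, a regulator of the translation response to amino acid shortage on chromosome 18, had 29.9 and 32.2 FPKM at Day1, 48.1 and 37.1 at Day4, 41.5 and 36.4 at Day7, 28.7 and 28.6 at Day10, 15.4 and 14.7 at Day14, 18.7 and 18.3 at Day17 and 20.7 and 18.6 at Day21. Impact was at 61.4 and 60.6 FPKM in teratoma, 18.9 and 21.2 in pre-NPCs, 16.3 and 12.9 in giNPC P6 and 8.03 and 8.18 in Brain-NPCs. It changed over the days (range 1.43 on the log2 scale, adjusted p = 1.72e-07), with the highest libraries at Day4 and Day7. Rasgrf1, an exchange factor for Ras of brain and pancreas, had 0.205 and 0.243 FPKM at Day1, 0.0722 and 0.103 at Day4, 0.313 and 0.0977 at Day7, 0.509 and 0 at Day10, 0.614 and 0.985 at Day14, 0.668 and 0.408 at Day17 and 1.08 and 0.478 at Day21. Rasgrf1 was at 0.527 and 0.576 FPKM in teratoma, 13.9 and 13.2 in pre-NPCs, 0.869 and 1.43 in giNPC P6 and 0.229 and 0 in Brain-NPCs. Its 2 pre-NPC libraries stood above every other library.

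Counted over the list, 10 of the 33 tested genes rose and 4 fell at Day10 relative to Day1, against 14.5% and 2.62% of all genes tested. Those that rose were Dlk1, H19, Igf2, Mest, Nap1l5, Nnat, Peg10, Plagl1, Ppp1r9a and Zim1, and those that fell were Meg3, Mirg, Rian and Slc38a4. The median log2 fold change was 0.12, against 0.24 over all genes. By parental copy, 7 of 20 paternal genes rose and 1 fell, with 3 of 13 maternal genes up and 3 down, given as counts with no test. With quantile normalization Zim1 was not called (log2 fold change 0.66).

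At Day21 relative to Day1, 8 of the 33 rose and 7 fell, against 18.3% and 10.3% of all genes tested. Dlk1, Mest, Nap1l5, Nnat, Peg10, Ppp1r9a, Snrpn and Zrsr1 were higher, and Grb10, Igf2, Igf2r, Meg3, Mirg, Rian and Slc38a4 were lower. Of paternal genes, 7 of 20 rose and 2 fell, and of maternal genes 1 of 13 rose and 5 fell. With quantile normalization 6 rose and 9 fell, against 4235 of all 15658 genes called in either direction. Dlk1 (log2 fold change 0.83) and Peg10 (0.96) were not called with it.

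The fall after Day10 was tested after its values had been seen. At Day17 relative to Day10, 12 of the 33 had fallen, against 13.3% of all genes, and 3 (Nap1l5, Nnat and Snrpn) had risen, against 8.67%. The 12 were Dlk1, Grb10, H19, Igf2, Igf2r, Meg3, Mest, Mirg, Peg10, Plagl1, Rian and Zim1, with changes of -1.32 to -5.65 on the log2 scale, the largest for Igf2 (log2 fold change -5.65 ± 0.23 SE, adjusted p = 5.39e-11). From counts, Nnat (1.19) and Snrpn (0.00) were not called. Fibroblast markers summed to 191 and 158 FPKM at Day17, against 1269 and 1178 at Day10, and macrophage markers to 307 and 264 at Day17, against 5038 and 4864 at Day10; their part in the changes was not tested. At Day21 relative to Day17, also tested after the values had been seen, 6 genes were higher, against 2.70% of all genes, and 0 were lower, against 2.29%. By edgeR on the counts 4 of 30 tested were higher and 0 lower, against 1027 of all 14334 genes called in either direction. By limma 4 of the 33 were lower at an unadjusted p under 0.05, for which the share over all genes was not counted. The 6 were Dlk1 (log2 fold change 2.60 ± 0.22 SE, adjusted p = 1.32e-06), Igf2 (log2 fold change 1.99 ± 0.23 SE, adjusted p = 2.75e-05), Meg3 (log2 fold change 1.99 ± 0.20 SE, adjusted p = 7.76e-06), H19 (log2 fold change 1.79 ± 0.28 SE, adjusted p = 0.000319), Slc38a4 (log2 fold change 1.23 ± 0.09 SE, adjusted p = 3.4e-07) and Plagl1 (log2 fold change 1.04 ± 0.18 SE, adjusted p = 0.000618). The call for Plagl1 was lost without replicate 2 of Day17 (0.88), and that for Igf2 on counts with edgeR. The fibroblast marker sum was also higher at Day21, at 388 and 412 FPKM, than at Day17, at 191 and 158 FPKM; its part in the result was not tested.

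Pre-NPCs differed from Day21 in 8 of the 33 genes, 2 higher and 6 lower, against 4.05% and 8.21% of all genes tested. Grb10 (log2 fold change 2.62 ± 0.13 SE, adjusted p = 4.29e-09) and Rasgrf1 (log2 fold change 3.05 ± 0.20 SE, adjusted p = 4.43e-08) were higher. H19 (log2 fold change -1.09 ± 0.28 SE, adjusted p = 0.00507), Igf2 (log2 fold change -2.05 ± 0.23 SE, adjusted p = 6.63e-06), Meg3 (log2 fold change -1.01 ± 0.20 SE, adjusted p = 0.000883), Rian (log2 fold change -1.76 ± 0.16 SE, adjusted p = 1.03e-06), Nap1l5 (log2 fold change -1.88 ± 0.47 SE, adjusted p = 0.00484) and Slc38a4 (log2 fold change -1.43 ± 0.09 SE, adjusted p = 3.23e-08) were lower. Without replicate 2 of pre-NPCs the calls for H19 (log2 fold change -0.91), Meg3 (-0.86) and Nap1l5 (-0.85) were lost. That of Meg3 was also lost without replicate 1 of Day21 (-0.90), and with quantile normalization neither Meg3 (-0.98) nor H19 (-0.75) was called. Meg3 was not called with a pseudocount of 0.1 (-1.11), nor Nap1l5 with DESeq2 on counts (-1.50). Fibroblast markers summed to 104 and 124 FPKM in pre-NPCs, against 388 and 412 at Day21, with 7 of 8 genes at 1 FPKM or more in both libraries of each group. Macrophage markers summed to 57.4 and 111 FPKM in pre-NPCs, against 309 and 386 at Day21, and muscle markers to 0.0506 and 0.105 FPKM, against 15.3 and 14.6. Of the 3 muscle markers, Myog and Myh3 were under 1 FPKM in both groups, so the Day21 sum came mainly from Des. Oligodendrocyte markers were higher, at 123 and 193 FPKM in pre-NPCs, against 45.4 and 41.8 at Day21. The part of these markers in the changes was not tested.

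In giNPC P6 relative to pre-NPCs, 2 genes were higher and 7 lower, against 6.87% and 5.90% of all genes tested. Grb10 showed the largest change of the list (log2 fold change -5.10 ± 0.13 SE, adjusted p = 9.06e-12), followed by H19 (log2 fold change -4.59 ± 0.28 SE, adjusted p = 1.24e-08). Rasgrf1 (log2 fold change -2.77 ± 0.20 SE, adjusted p = 7.48e-08), Igf2 (log2 fold change -2.67 ± 0.23 SE, adjusted p = 4.88e-07), Dlk1 (log2 fold change -2.55 ± 0.22 SE, adjusted p = 4.8e-07), Meg3 (log2 fold change -2.35 ± 0.20 SE, adjusted p = 4.37e-07) and Zrsr1 (log2 fold change -1.11 ± 0.11 SE, adjusted p = 1.8e-06) were also lower. Nnat (log2 fold change 2.50 ± 0.23 SE, adjusted p = 7.69e-07) and Mest (log2 fold change 1.27 ± 0.20 SE, adjusted p = 0.000135) were higher. The call for Mest was lost without replicate 2 of giNPC P6 (log2 fold change 0.81). On counts, Nnat was not called (1.54 to 1.57), nor was Igf2 with edgeR (-4.63). Oligodendrocyte markers summed to 3.55 and 4.11 FPKM in giNPC P6, against 123 and 193 in pre-NPCs, and fibroblast markers to 13 and 13.2 FPKM, against 104 and 124; their part in the changes was not tested.

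Set against Day1, giNPC P6 had 7 of the 33 genes higher and 11 lower, against 20.9% and 13.8% of all genes tested. The lower genes included all of the Igf2-H19 and Dlk1-Meg3 domains. H19 (log2 fold change -6.64 ± 0.28 SE, adjusted p = 2.33e-11), Igf2 (log2 fold change -6.57 ± 0.23 SE, adjusted p = 3.23e-12), Rian (log2 fold change -6.21 ± 0.16 SE, adjusted p = 1.38e-13), Meg3 (log2 fold change -6.14 ± 0.20 SE, adjusted p = 1.58e-12) and Grb10 (log2 fold change -5.16 ± 0.13 SE, adjusted p = 1.37e-13) showed the largest decreases. Nnat (log2 fold change 6.89 ± 0.23 SE, adjusted p = 1.58e-12), Nap1l5 (log2 fold change 4.07 ± 0.47 SE, adjusted p = 2.34e-06), Mest (log2 fold change 3.82 ± 0.20 SE, adjusted p = 3.17e-10) and Ppp1r9a (log2 fold change 2.90 ± 0.14 SE, adjusted p = 1.7e-10) showed the largest increases. With quantile normalization 5 rose and 13 fell, against 5079 of all 15658 genes called in either direction. Peg10 (log2 fold change 0.85) and Mkrn3 (0.98) were not called with it. The call for Impact (log2 fold change -1.04 ± 0.12 SE, adjusted p = 2.27e-06) was lost without replicate 2 of Day1 (-0.99) or of giNPC P6 (-0.89). Fibroblast markers summed to 13 and 13.2 FPKM in giNPC P6, where 3 of 8 genes reached 1 FPKM in both libraries and Col1a1, Col1a2, Col3a1 and Twist2 stayed under 1, against 2569 and 2598 FPKM at Day1, where 8 of 8 did. Macrophage markers summed to 19.9 and 2.14 FPKM in giNPC P6, against 801 and 811 at Day1. The part of these markers in the changes was not tested.

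The induced line was set against Brain-NPCs, the progenitors from neonatal brain, to compare it with a natural counterpart. Of the 33 genes, 2 were higher and 3 lower in giNPC P6, against 4.61% and 5.38% of all genes tested. The share called was thus close to that of all genes. Airn (log2 fold change 2.54 ± 0.27 SE, adjusted p = 6.43e-06) and Sgce (log2 fold change 1.17 ± 0.11 SE, adjusted p = 1.31e-06) were higher. Ndn (log2 fold change -1.74 ± 0.18 SE, adjusted p = 5.14e-06), Snrpn (log2 fold change -1.09 ± 0.23 SE, adjusted p = 0.00159) and Dlk1 (log2 fold change -1.03 ± 0.22 SE, adjusted p = 0.00168) were lower. Dlk1 was lost without replicate 1 of giNPC P6 (-0.99) or of Brain-NPCs (-0.98), Snrpn without replicate 1 of giNPC P6 (-0.63) and Sgce without replicate 2 of giNPC P6 (0.98). With quantile normalization 4 were higher and 1 lower, against 1323 of all 15658 genes called in either direction. Of these 5 imprinted genes, 3 were called in both analyses. Dlk1 (-0.90) and Snrpn (-0.98) were not called with quantile normalization. Snrpn was also not called with only these 2 groups in the fit (-1.09). On counts, Snrpn was called lower by edgeR with its filter (log2 fold change -3.54, adjusted p = 0.0326). It was not called by edgeR without a filter (-3.55) or by DESeq2 (-3.87). Sgce had 0 counts in all libraries of both groups, so its count tests (0.00) could not show a difference. Fibroblast markers summed to 13 and 13.2 FPKM in giNPC P6, against 66.1 and 68.5 in Brain-NPCs. Col1a1, Col1a2, Col3a1 and Twist2 stayed under 1 FPKM in both groups, so these sums came from the rest of the list. Neuron markers summed to 216 and 146 FPKM in giNPC P6, against 84.6 and 84.6. Oligodendrocyte markers summed to 3.55 and 4.11 FPKM, against 17.3 and 15.6. The part of these markers in the differences was not tested.

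H19, Igf2, Meg3, Rian, Mirg, Grb10 and Slc38a4 were at or below 3.4 FPKM in all libraries of both groups. For H19 the difference was -0.71 ± 0.28 on the log2 scale (adjusted p = 0.0524), and for Igf2 it was -0.34 ± 0.23 (adjusted p = 0.266). By edgeR on counts H19 was called lower in giNPC P6 (log2 fold change -1.17, adjusted p = 0.0182). In all, edgeR called 7 of 30 tested imprinted genes here, 4 higher and 3 lower, against 2382 of all 14334 genes. Of these 7, 3 were also called on FPKM. On the log2(FPKM + 1) scale, the 2 giNPC P6 libraries differed by 2-fold or more in H19, Igf2r and Nap1l5, 3 of the 33 genes, against 3.80% of all genes; in Brain-NPCs 0 of the 33 did. The added 1 FPKM hides larger ratios of low genes, such as Igf2 at 1.31 and 0.225 FPKM in these libraries. Olig2, a progenitor marker, was at 44.8 and 187 FPKM in the 2 giNPC P6 libraries, against 332 and 325 FPKM in Brain-NPCs.

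Teratoma is a tumour of mixed tissues, and for 21 of the 36 genes its mean was the highest of the 11 groups. These include Kcnq1ot1 and Phlda2, which were not tested, and Magel2, Kcnq1, Slc22a18 and Usp29, which passed the filter only through teratoma. The share over all genes was not counted. The teratoma libraries had 15149 and 15131 genes at 1 FPKM or more, against at most 12299 in the other libraries. Relative to giNPC P6, 23 of the 33 genes were higher and 0 lower, against 30.0% and 5.98% of all genes tested. The median log2 fold change was 2.77, against 0.18 over all genes. Without the genes that passed the filter only through teratoma, a count added after the data were seen, 19 of 29 were higher and 0 lower, against 21.0% and 6.81% of all genes so chosen, and the median was 2.00, against 0.04. By edgeR on the counts 20 of 30 tested were higher and 0 lower, against 6101 of all 14334 genes called in either direction. By limma 4 of the 33 were lower at an unadjusted p under 0.05, for which the share over all genes was not counted. H19 (log2 fold change 7.90 ± 0.28 SE, adjusted p = 8.59e-13), Meg3 (log2 fold change 7.18 ± 0.20 SE, adjusted p = 5.67e-14), Rian (log2 fold change 6.49 ± 0.16 SE, adjusted p = 1.4e-14), Igf2 (log2 fold change 5.27 ± 0.23 SE, adjusted p = 1.45e-11), Plagl1 (log2 fold change 4.59 ± 0.18 SE, adjusted p = 2.69e-12) and Ndn (log2 fold change 4.56 ± 0.18 SE, adjusted p = 4.59e-12) changed the most. With quantile normalization 21 were higher and 5 lower, against 6030 of all 15658 genes called in either direction. The median of all genes was then -0.27. Mkrn3 (log2 fold change 0.72) and Asb4 (-0.11) were not called as higher with it. On counts Nnat was not called (1.18 to 1.37). Markers of muscle, of epithelium, and of endoderm and liver summed to 83.3 to 89, 436 to 438 and 386 to 391 FPKM in teratoma, against at most 1.42 FPKM for each list in giNPC P6. Fibroblast markers summed to 1478 and 1420.0 FPKM, against 13 and 13.2, and macrophage markers to 1194 and 1184, against 19.9 and 2.14. Neuron markers summed to 694 and 677 FPKM, against 216 and 146. Neural progenitor markers were lower, at 528 and 509.9 FPKM, against 4254 and 5818. Nr2e1 of that list went the other way, reaching 1 FPKM in both teratoma libraries and in neither giNPC P6 library. The part of these markers in the result was not tested.

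**Figure D5:**
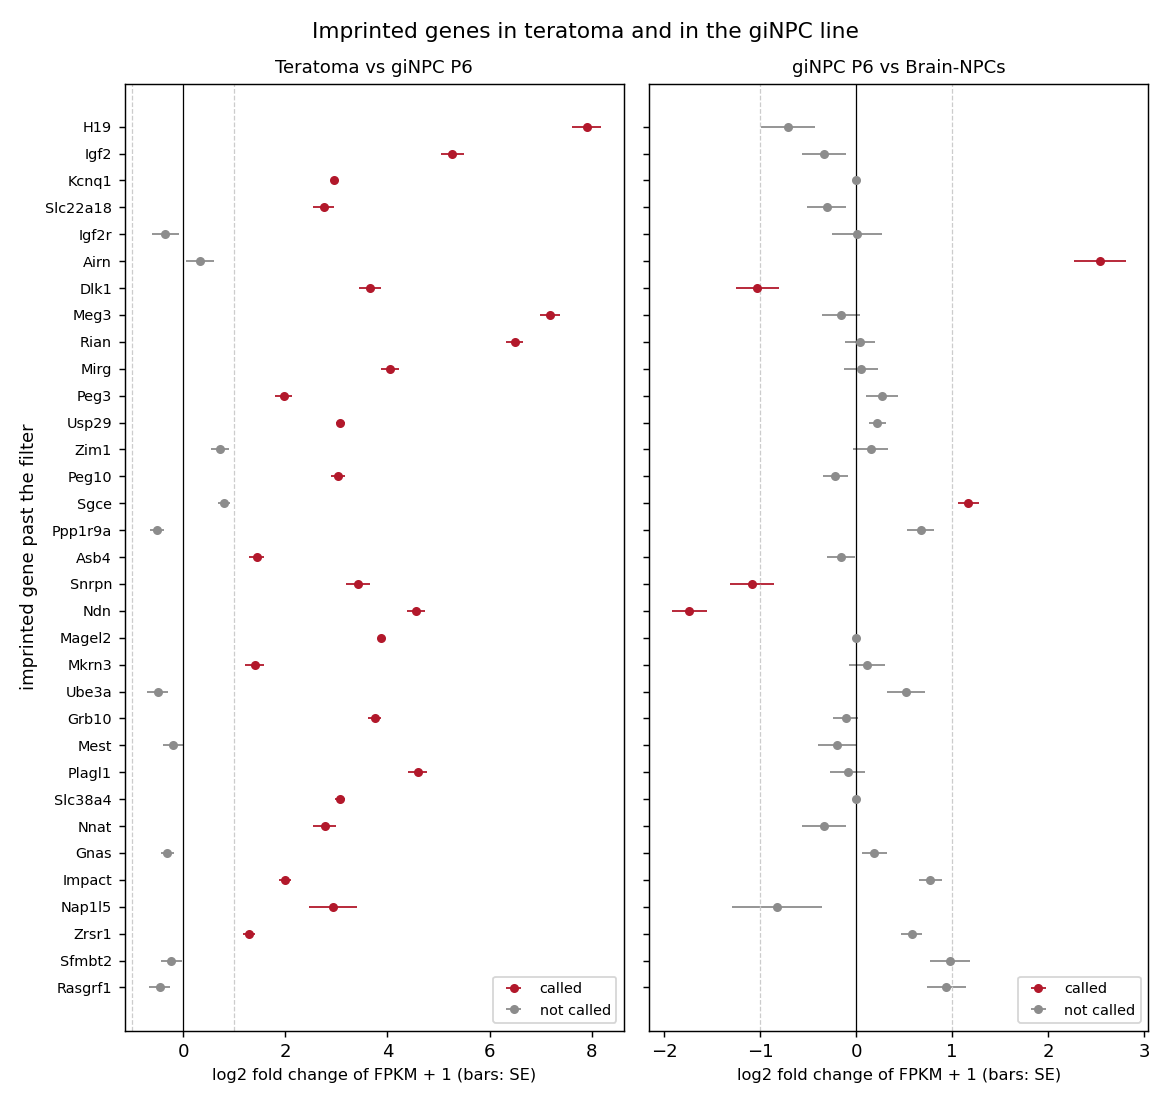
Log2 fold changes of FPKM + 1 (x axis) of the 33 tested imprinted genes (y axis, by domain) in teratoma relative to giNPC P6 (left) and in giNPC P6 relative to Brain-NPCs (right). Points are limma estimates, bars are standard errors and dashed lines mark a 2-fold change; in red are the 23 and the 5 genes called. For Kcnq1, Magel2, Slc22a18 and Slc38a4, listed at 0 in giNPC P6, the position in the left panel depends on the added 1 FPKM.

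The 5 listed genes of the Kcnq1 domain were low outside teratoma. Kcnq1, a potassium channel, was at 7.16 and 6.34 FPKM in teratoma and at most 0.0347 in the other 20 libraries. Slc22a18, a transporter, was at 5.78 and 5.71 FPKM in teratoma and at most 0.962 in the others. Kcnq1ot1, the paternal antisense RNA of the domain, had at most 0.269 FPKM, Phlda2, a growth restrainer of the placenta, at most 0.67, and Ascl2, a trophoblast transcription factor, at most 1.17. Ascl2 was at 0.472 and 0.324 FPKM in teratoma, against 0.758 and 1.17 at Day7. Cdkn1c, a cell-cycle inhibitor of the same domain that is not on the list, took another course, at 5.4 and 4.75 FPKM in teratoma, against 67.3 and 74.6 at Day7. Sfmbt2, a polycomb protein with a paternal bias in placenta, had at most 1.97 FPKM.

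Gnas, the stimulatory G protein alpha subunit, was the most even gene of the list at high level, at 622 to 1051 FPKM in all libraries. On FPKM it was not called in any planned comparison. By edgeR on counts, of which it holds a share of 0.00524, it was lower at Day10 relative to Day1 (log2 fold change -2.26, adjusted p = 0.00258). It was higher there in teratoma relative to giNPC P6 (log2 fold change 4.50, adjusted p = 1.89e-08). The 8 Gnas transcripts were not all even in FPKM. The transcript NM_019690, which starts at the most upstream promoter (mm9, chromosome 2, 174109821 to 174163585), had 36 and 36.2 FPKM in teratoma and at most 2.2 in every other library. The split of Gnas reads among transcripts that share exons is a Cufflinks estimate. For transcript NR_003258 it gave 196 and 15.5 FPKM in the 2 Day21 libraries, so it was not used further.

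A further list of 50 imprinted genes was used for context; 46 were in the files and 37 were tested. At Day21 relative to Day1, 7 of the 37 rose and 6 fell, against 18.3% and 10.3% of all genes tested. The largest changes were in Tfpi2, a protease inhibitor (log2 fold change -6.01 ± 0.13 SE, adjusted p = 5.34e-14), Tnfrsf23, a decoy receptor (log2 fold change -4.68 ± 0.14 SE, adjusted p = 7.46e-13), Gatm, an enzyme of creatine synthesis (log2 fold change 4.12 ± 0.11 SE, adjusted p = 3.34e-13), and Dcn, decorin, a proteoglycan of connective tissue (log2 fold change -3.55 ± 0.22 SE, adjusted p = 2.74e-09). Dcn had 75.9 and 80.1 FPKM at Day21, against 929 and 918 FPKM at Day1. In giNPC P6 relative to Brain-NPCs, 2 were higher and 2 lower, against 4.61% and 5.38% of all genes tested. They were Begain (log2 fold change 1.03 ± 0.20 SE, adjusted p = 0.000793) and Tbc1d12 (log2 fold change 1.03 ± 0.13 SE, adjusted p = 2.4e-05), higher, and Peg12 (log2 fold change -1.34 ± 0.18 SE, adjusted p = 5.31e-05) and Tssc4 (log2 fold change -1.06 ± 0.34 SE, adjusted p = 0.0206), lower.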

How the data were processed

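Poly(A) RNA was sequenced in paired ends on an Illumina HiSeq instrument, per the labels' protocols, in 22 libraries (11 groups of 2, grouped by their labels). The authors deposited whole-number counts per RefSeq transcript (HTSeq 0.6.0) and FPKM per transcript (Cufflinks 2.2.1); alignment was with TopHat2 2.0.12 to mm9, and edgeR is also named, all per the submitters' processing notes. The strand setting is not given in the sources used here. In the count tables Dlk1, Peg10 and Slc22a18 have 0 counts, Igf2, Nnat and Snrpn hold shares of 0.00868, 0.00346 and 0.00813, and Meg3 holds a share of 0.4 of the counts expected from its FPKM and length. The shares are also low for Sgce (0.000158), Gnas (0.00524), Ube3a (0.00984), Grb10 (0.0135), Sfmbt2 (0.0233) and Airn (0.163), so count tests of these genes rest on few of their reads. FPKM summed per gene was therefore tested with limma 3.58.1 (R 4.3.3; log2 with a pseudocount of 1, trend, 1 mean per group, a spread pooled over all groups on 11 residual degrees of freedom, two-sided), and was tested on simulated data beforehand. Counts were tested as an alternative with edgeR 4.0.16 and DESeq2 1.42.0.

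The other alternatives were a pseudocount of 0.1, no filter on low values, quantile normalization, a replicate block, only the groups compared, and each library left out. Every gene of the list is named. Values of every library are given for the 24 genes that were called in a planned comparison and reached a group mean of 10 FPKM, and the other 12 are given by range. Of the context list, the 4 largest called changes at Day21 relative to Day1 and in giNPC P6 relative to Brain-NPCs are named. The genes and lists were chosen with earlier results of these data known. Counted reads per library, 3084428 to 9689996, limit the precision of low genes.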

Additional observations from a re-analysis of the deposited data

How the results depend on the processing

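Leaving out each library in turn gave counts of called imprinted genes of 22 to 24 over the induction days, 13 to 14 at Day10 and 15 to 16 at Day21 relative to Day1, 15 to 17 at Day17 relative to Day10 and 5 to 7 at Day21 relative to Day17. The counts were 6 to 8 in pre-NPCs relative to Day21, 8 to 12 in giNPC P6 relative to pre-NPCs, 17 to 19 in giNPC P6 relative to Day1, 5 to 6 in giNPC P6 relative to Brain-NPCs, and 19 to 23 in teratoma relative to giNPC P6. With a pseudocount of 0.1, 8 genes were called in giNPC P6 relative to Brain-NPCs, against 5 with 1. With quantile normalization the median log2 fold change of all genes was -0.05 at Day10 and -0.01 at Day21 relative to Day1, 0.00 in giNPC P6 relative to Day1 and -0.27 in teratoma relative to giNPC P6, against 0.24, 0.12, 0.11 and 0.18 without it. It turned the change of Asb4 in teratoma relative to giNPC P6 to -0.11. On counts, Snrpn in giNPC P6 relative to Day1 came to -0.36 with edgeR, with or without the filter, and to -0.52 with DESeq2; Snrpn holds a share of 0.00813 of its expected counts. At Day10 relative to Day1 the count tests called 7 higher and 7 lower, against 10 and 4 on FPKM. Of all genes, edgeR with its filter called 3143 of 14334 there. With no filter no call of the imprinted genes changed. Replicate numbers did not pair the libraries: of 55 pairs of groups, 9 had a correlation of deviations above 0.1, with a range of -0.26 to 0.28. With the replicate block the counts were 23 over the induction days, 14 and 15 at Day10 and Day21 relative to Day1, 8 in pre-NPCs, 9, 18 and 5 in giNPC P6 relative to pre-NPCs, Day1 and Brain-NPCs, and 23 in teratoma, as without it.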

Other observations

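Further imprinted genes of the context list were called in teratoma relative to giNPC P6, where 18 of 37 were higher and 3 lower, against 30.0% and 5.98% of all genes tested. Without the 6 that passed the filter only through teratoma, 12 of 31 were higher, against 21.0% of all genes so chosen. Th, the first enzyme of dopamine synthesis, had 19.8 and 19.7 FPKM in teratoma, and Ins2, an insulin gene, 9.53 and 8.61 FPKM. Both were listed at 0 in giNPC P6. Ddc, which completes dopamine synthesis, had 17.3 and 15.4 FPKM in teratoma, against 0.204 and 0.178 FPKM in giNPC P6. Zdbf2 had 8.47 and 8.64 FPKM in teratoma and was listed at 0 in giNPC P6. The lower genes were Cd81, Dhcr7 and Gatm. Dhcr7, an enzyme of cholesterol synthesis, had 13.4 and 13 FPKM in teratoma, against 52.8 and 49 FPKM in giNPC P6. Cdkn1c of the Kcnq1 domain had 34.9 and 43.1 FPKM at Day1, 9.25 and 11.2 at Day17, 8.86 and 7.97 at Day21 and 3.57 and 2 in giNPC P6.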
